A study of Coregonus migratorius and Coregonus peled with 8 samples.

Results

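Among the 2184 genes listed for larvae of 2 Siberian whitefishes, 69 were listed at 0 in the aquaculture-reared larvae of a species and well above 0 in those of the other. These members were chosen by their values in the 6 aquaculture-reared libraries. The rule asked for a median of exactly 0 over the 3 aquaculture-reared libraries of a species. It also asked that the lowest of the 3 values of the other species lie at least 1 above the highest of these on the scale log2(value + 1). It found 51 genes held by peled and at 0 in omul, called peled-only here, and 18 held by omul and at 0 in peled, called omul-only. These names refer to the aquaculture-reared libraries and to medians alone. In the libraries from nature, where 99.7% of all listed genes were above 0 in omul and 99.1% in peled, the 51 peled-only genes were all above 0 in omul and the 18 omul-only genes all above 0 in peled. These counts are those of listed genes at large, and the members are therefore not called absent from a species.

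The larvae were peled (Coregonus peled) and Baikal omul (Coregonus migratorius), and each library was made from poly(A) RNA of 12 to 16 whole larvae, extracted larva by larva and then combined. There were 8 libraries, 1 for each species in each of 4 states, so no group has replicates. The states were larvae from nature, acute stress, in which larvae were warmed to 21 °C for 1 h, chronic stress, in which they were held at 21 °C for 24 h on 3 occasions a week, and an unheated control. Acute, chronic and control larvae had been kept in aquaculture for 1.5 months at 9 to 12 °C. The larvae from nature came from hatchery ponds, per the series' design text, and neither their age nor their temperature is given there, so age, temperature and origin cannot be told apart. In pools of whole larvae, fewer cells of a type and less RNA per cell cannot be told apart either.

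The Baikal omul is a pelagic whitefish of Lake Baikal, and the peled is a plankton-feeding whitefish of northern rivers and lakes that is widely reared in aquaculture. Both belong to the salmonids, whose ancestor went through a doubling of its whole genome, so that many salmonid genes exist as closely alike copies. The listed genes come from a de novo assembly by Trinity, which builds transcripts from reads without a genome. A Trinity identifier gives a read cluster (DN), a component within it (c) and a gene within that (g), and genes of the same component were joined in the same assembly graph. Neither the labels nor the files pair these identifiers with gene names, so no function is given for any gene here.

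The value of a gene is a normalized expression signal of unstated unit, and sequencing depth is unknown. The deposited list is a selection by an unstated rule, in which the highest value of each gene over the 8 libraries was 8.20 or more. Values of exactly 0 were more frequent in some libraries than in others. In peled 24 genes were listed at 0 in the acute library, 45 in the chronic library, 49 in the control and 20 in the library from nature. In omul the counts were 70, 74, 49 and 6, in the same order. A 0 is therefore described as listed at 0 and not as a lack of expression.

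The genes at 0 form the far end of a wider difference between the species in aquaculture. Of all listed genes, 585 (26.8%) were at least 1 higher (log2) in each of the 3 peled libraries than in any of the 3 omul libraries, and the omul median was at 0 in 51 of them, or 8.72%. Another 126 of the 585 had an omul median above 0 but under 1, and the median over the 585 was 1.55. In the other direction 619 genes (28.3%) were at least 1 lower in each peled library than in any omul library, with a peled median at 0 in 18 of them, or 2.91%. A further 150 of the 619 had a peled median above 0 but under 1. Since the rule chose the members on these values, they are given as a description.

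Few genes lay near the limit. Just inside it, TRINITY_DN39543_c0_g1 had 11.7, 3.72 and 16.2 in acute, chronic and control peled, against 0, 0 and 1.00 in omul, a gap of 1.24 (log2) between the lowest peled and the highest omul value. TRINITY_DN41622_c2_g1 was next with a gap of 1.66. On the omul side the smallest gaps were 1.40 in TRINITY_DN4859_c0_g3 and 1.54 in TRINITY_DN9940_c7_g1. Outside the limit were 3 genes with an omul median of 0 and 7 with a peled median of 0. The nearest of them included TRINITY_DN7129_c0_g1, whose lowest peled value lay 0.20 (log2) above its highest omul value, and TRINITY_DN4067_c4_g2, whose lowest omul value lay 0.84 above its highest peled value. TRINITY_DN46766_c0_g4 was at 0 in all 3 aquaculture-reared peled libraries and had a median of 0 in omul as well, so it belonged to neither direction, with 237 in peled from nature and 3.52 in omul from nature.

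Most peled-only genes were of moderate level. Their median value over the 3 peled libraries was 3.23 to 281, with a median of 15.4 over the 51 genes. It was under 10 in 6 genes, between 10 and 20 in 25, between 20 and 50 in 17 and above 50 in 3. All 3 peled values were at least 10 in 31 of the 51. TRINITY_DN45569_c1_g1 stood highest, with values of 281, 126 and 422 in acute, chronic and control peled, against 0, 0 and 1.44 in the same states of omul. TRINITY_DN75747_c0_g2 followed with 25.6, 327 and 198 in acute, chronic and control peled, against 0, 0 and 4.08 in omul. The summed value of the 51 made up 1.38% to 1.96% of the listed total in the aquaculture-reared peled libraries and 0.00312% to 0.0188% in those of omul.

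In omul the 51 genes were not uniformly at 0. All 3 omul libraries were at 0 in 26 of them, and in the other 25 a single library held a value above 0. That library was the omul control in 14 genes, chronic omul in 6 and acute omul in 5. Over all listed genes the control had fewer zeros (49) than chronic (74) or acute omul (70). Those zeros include the members' own, 37 in the control, 45 in chronic and 46 in acute omul, so they are no separate background. The values above 0 were 0.12 to 6.45, with a median of 1.03, and 11 of the 25 were under 1. The 3 above 2, named after their values were seen, were 6.45 in TRINITY_DN40817_c0_g1 and 4.08 in TRINITY_DN75747_c0_g2, each in the control, and 4.34 in TRINITY_DN3972_c14_g1 in acute omul. With both libraries of the heated omul at 0, the control alone set the gap of the first pair.

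The omul-only genes were fewer and of similar level. Their median value over the 3 omul libraries was 7.36 to 87.9, with a median of 18.7 over the 18 genes, and all 3 omul values were at least 10 in 11 of them. TRINITY_DN31105_c0_g1 stood highest, with 0, 1.41 and 0 in acute, chronic and control peled, against 54.6, 87.9 and 92.4 in omul. TRINITY_DN53092_c0_g2 had 0, 0.19 and 0 in peled, against 44.2, 57.9 and 81.8 in omul. All 3 peled libraries were at 0 in 6 of the 18 genes. In the other 12 a single peled library was above 0, with 0.054 to 2.22, and it was acute peled in 7, chronic peled in 4 and the control in 1. Acute peled was also the aquaculture-reared peled library with the fewest zeros over all genes (24). The omul-only genes themselves supplied 11 of those zeros, so the count is no separate background. The value above 2 was 2.22 in TRINITY_DN57096_c0_g3 in acute peled, named after it was seen.

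Within the species that held them, the members varied over the 3 aquaculture-reared libraries about as other listed genes did or less. The highest value was a median of 1.80 times the lowest over the 51 peled-only genes in peled, against 2.23 over the 2101 listed genes above 0 in all 3 peled libraries. It was 1.73 times the lowest over the 18 omul-only genes in omul, against 1.81 over 2071 genes in omul. The rule favours even values, since it asked for a high lowest value. In peled the ratio ran from 1.03 to 19.5, the highest being that of TRINITY_DN6368_c0_g2, and exceeded 5 in 4 genes. In omul the highest was 3.56, in TRINITY_DN64800_c0_g1.

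**Figure D1:**
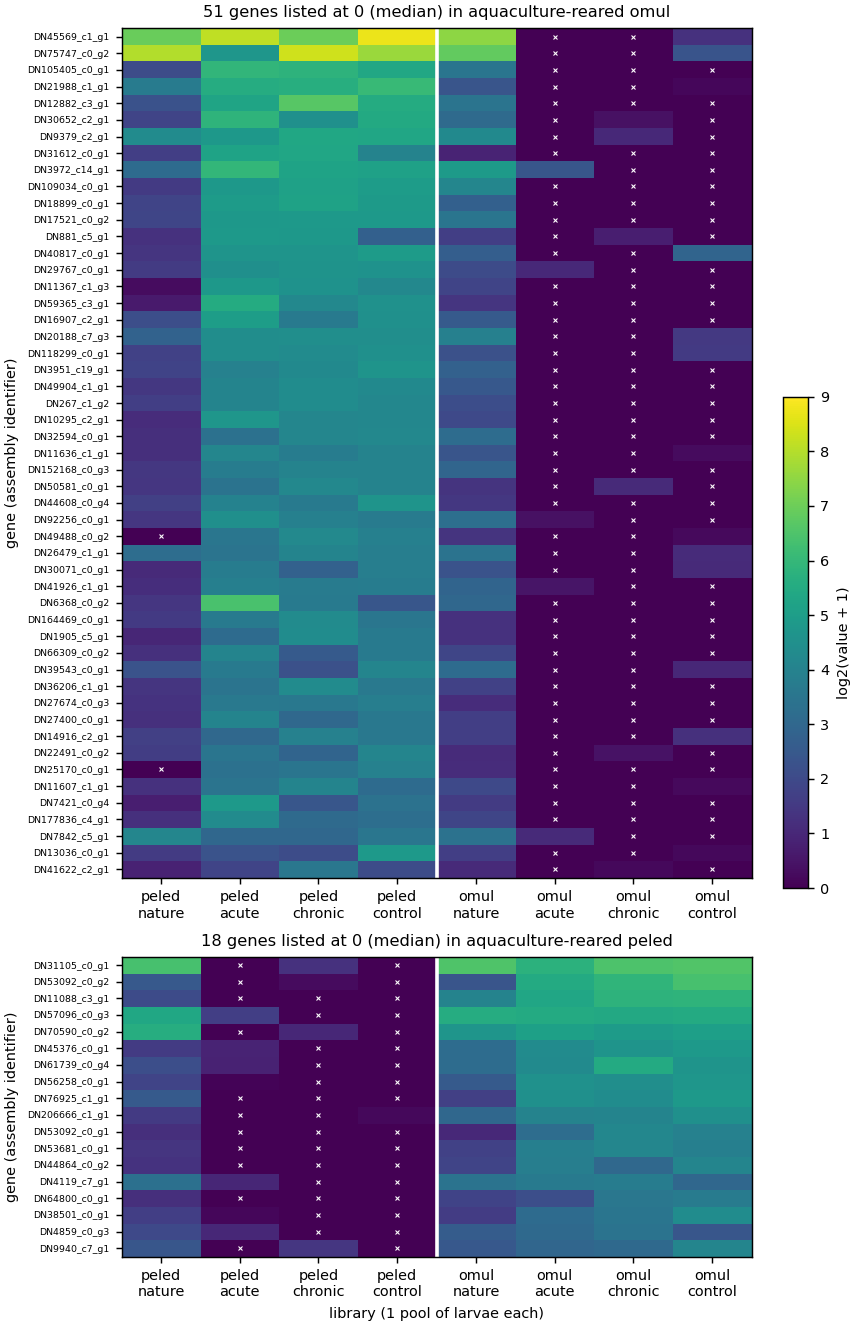
Values of the 51 peled-only genes (upper panel) and the 18 omul-only genes (lower panel) in the 8 libraries, as log2(value + 1), 1 row a gene in order of its median in the species that holds it; a white cross marks a value of exactly 0. The aquaculture-reared columns of the species at 0 are dark, while the nature columns of peled and omul are both above 0 in nearly every row, with 2 crosses, in peled, among the 51 genes.

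The libraries from nature took no part in the rule. In them the peled-only genes were listed above 0 in omul in 51 of 51 cases, as were 99.7% of all listed genes, so this share is near the background. Their lowest value in omul from nature was 0.88, the median 3.97 and the highest 178. Values of 10 or more were reached by 9 of the 51, or 17.6%, where 53.1% of all listed genes reached 10 in that library. The highest were those of the genes that also led in aquaculture-reared peled. TRINITY_DN45569_c1_g1 stood at 178 and TRINITY_DN75747_c0_g2 at 112 in omul from nature, against 0 to 1.44 and 0 to 4.08 in aquaculture-reared omul. In 50 of the 51 genes the nature omul value lay above all 3 aquaculture-reared omul values, where 46.8% of all listed genes did; the rule set those 3 values low, so nothing is read from that count. The exception was TRINITY_DN40817_c0_g1, with 5.46 in omul from nature against 6.45 in the omul control.

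The omul-only genes were likewise above 0 in peled from nature in 18 of 18 cases, where 99.1% of all listed genes were. Values there ran from 1.30 to 82.9 with a median of 3.04. Only 3 of the 18 (16.7%) reached 10, against 50.4% of all listed genes. TRINITY_DN31105_c0_g1 had 82.9 in peled from nature and 91.0 in omul from nature. TRINITY_DN70590_c0_g2 had 47.5 in peled from nature and 25.1 in omul from nature, although it was at 0, 1.02 and 0 in acute, chronic and control peled. TRINITY_DN57096_c0_g3 had 39.6 in peled and 47.1 in omul from nature. For these 3 genes the species were less than 1 (log2) apart in nature, at values like those of aquaculture-reared omul.

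In nature omul stood above peled in most members of both directions, as in 56.6% of all listed genes. For most peled-only genes this was the opposite order to aquaculture, and for most omul-only genes the same order. In nature 31 of the 51 peled-only and 14 of the 18 omul-only genes were less than 1 (log2) apart. Most listed genes were too, by the shares that follow, so closeness in nature is not particular to the members. Nature peled was at least 1 lower in 18 of the 51 and 4 of the 18, where 15.6% of all listed genes were. It was at least 1 higher in 2 and 0, where 8.38% were. Among the peled-only genes, nature peled was above nature omul in 11 of 51 (21.6%) and below it in 40 (78.4%), where 43.2% and 56.6% of all listed genes were. The median difference, peled minus omul, was -0.68 (log2), with a range of -2.59 to 1.38, against -0.14 over all listed genes. Among the omul-only genes nature peled was above nature omul in 5 and below it in 13 of 18, with a median difference of -0.29 and a range of -1.99 to 0.89. Most members were low in nature, with 40 of the 51 and 14 of the 18 under 10 in both libraries, against 40.8% of all listed genes. The share of genes with nature omul above nature peled was larger at low values. Among the 890 listed genes under 10 in both nature libraries it was 74.4%, against 33 of the 40 peled-only genes (82.5%) and 10 of the 14 omul-only genes (71.4%) at that level, where the median difference was -0.65 (log2) over the peled-only, -0.44 over the omul-only and -0.41 over all such genes. Among the 1294 listed genes at 10 or more in either nature library nature omul was above in 44.4%, against 7 of the 11 peled-only genes (63.6%), with a median difference of -1.07 against 0.13 over all such genes, and 3 of the 4 omul-only genes (75%). The omul-only genes at the low level were thus close to the background. The peled-only genes there stood further toward omul in both values, and that distance was not tested. The levels were set by the same nature values that are compared, and a gene could enter the higher level through 1 library alone. Only 3 of the 51 peled-only genes were at 10 or more in both nature libraries, so nothing is read from the share at that level. With a single library a species, no difference in nature could be tested.

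Members apart in nature by a clear step were then counted, taken as a difference of 1 or more on the log2(value + 1) scale where the higher of the pair of libraries reached 10. Nature peled was higher than nature omul in 2 of the 51 peled-only genes (3.92%), where 7.46% of all listed genes were, and lower in 6 (11.8%), where 7.28% were. The minimum of 10 bars the 40 peled-only genes under 10 in both libraries. The 6 lower genes all passed this minimum through nature omul alone, at 10.1 to 29.3, with nature peled at 1.91 to 7.87. Nothing is therefore read from the distance of their share to the background. Without it nature peled was at least 1 higher in 2 of the 51, where 8.38% of all listed genes were, and at least 1 lower in 18, where 15.6% were. After the libraries were scaled to a common median, 2 were higher and 2 lower, against 9.20% and 5.77% of all listed genes. That scaling moved the median difference of all listed genes to -0.06 (log2). TRINITY_DN21988_c1_g1 had 12.5 in nature peled against 4.19 in nature omul, a difference of 1.38 (log2), and TRINITY_DN75747_c0_g2 had 248 against 112, a difference of 1.14. The former passed the minimum of 10 through nature peled alone. On the lower side, TRINITY_DN109034_c0_g1 had 1.91 in nature peled against 16.5 in nature omul, a difference of -2.59 (log2), although it was at 26.8, 34.2 and 30.5 in acute, chronic and control peled and at 0 in all 3 aquaculture-reared omul libraries. TRINITY_DN3972_c14_g1 had 7.87 in nature peled against 29.3 in nature omul, a difference of -1.77. Of the 18 omul-only genes, 0 were higher in nature peled and 1 was lower, TRINITY_DN11088_c3_g1, with 3.11 in nature peled against 15.3 in nature omul. That gene passed the minimum through nature omul alone.

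**Figure D2:**
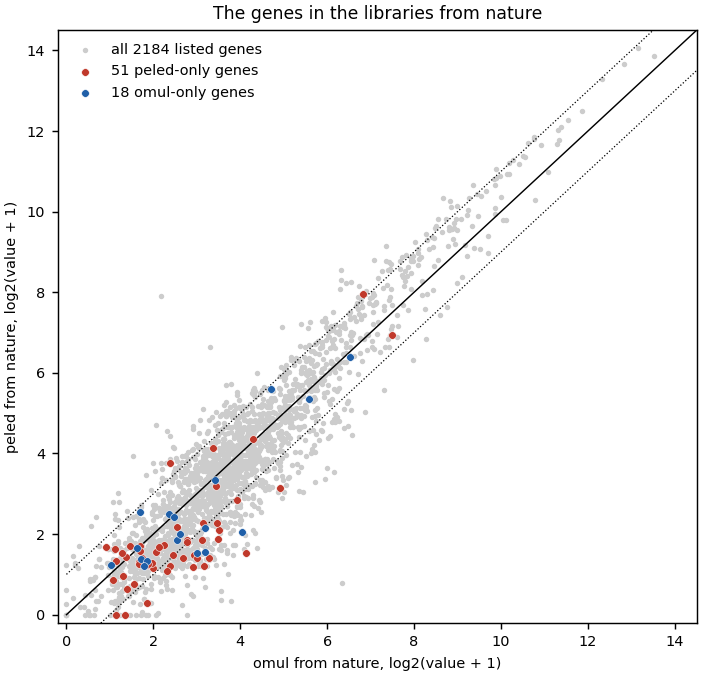
Each point is a gene in the 2 libraries from nature, with omul on the x axis and peled on the y axis, both as log2(value + 1); grey points are all 2184 listed genes, red the 51 peled-only and blue the 18 omul-only genes. The solid line marks equal values and the dotted lines a difference of 1. Both sets of members lie mostly at the low end. Under 10 in both libraries were 40 of the 51 and 14 of the 18 genes, against 40.8% of all listed genes. Below the solid line, with omul above peled, were 40 of the 51 and 13 of the 18, against 56.6% of all listed genes.

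In the species that held them, most members stood lower in nature than in aquaculture. Nature peled was below all 3 aquaculture-reared peled libraries in 48 of the 51 peled-only genes, where this held for 42% of all listed genes. It was within their range in 2 and above it in 1. Set against the unheated control, nature peled was lower by the same step as above in 41 of the 51 genes (80.4%), where 30.3% of all listed genes were lower, and higher in 0, where 36.8% were. The median of the 51 was 1.91 in nature peled and 16.3 in the peled control. Since the rule chose genes high in aquaculture-reared peled, lower values in another peled library can come from the choice alone and nothing is read from these counts. TRINITY_DN25170_c0_g1 was listed at 0 in nature peled and at 14.6 in the control, and TRINITY_DN11367_c1_g3 had 0.22 in nature peled against 17.5 in the control. TRINITY_DN45569_c1_g1 had 123 in nature peled against 422 in the control. TRINITY_DN7842_c5_g1, the gene above the aquaculture range and so named after its values were seen, had 16.6 in nature peled, against 7.04, 6.94 and 10.6 in acute, chronic and control peled.

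In omul the picture was alike. Nature omul was below all 3 aquaculture-reared omul libraries in 14 of the 18 omul-only genes, where 32.8% of all listed genes were, within them in 3 and above them in 1. Against the omul control it was lower by that step in 13 (72.2%), where 14.4% of all listed genes were, and higher in 0, where 21.8% were. The rule chose these genes for high values in aquaculture-reared omul, so here too nothing is read from the counts. TRINITY_DN53092_c0_g2 had 4.14 in nature omul against 81.8 in the control, a difference of -4.01 (log2). TRINITY_DN76925_c1_g1 had 2.25 in nature omul against 28.6 in the control, a difference of -3.19. The gene above the aquaculture range was TRINITY_DN57096_c0_g3, with 47.1 in nature omul against 44.5, 41.7 and 44.4 in acute, chronic and control omul, and TRINITY_DN31105_c0_g1 stood within it at 91.0.

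Warming was then read within the species that held each member. The rule did not compare the states, but it used these same libraries and asked for a high lowest value, so the counts are given as a description and nothing is read from their distance to the background. After acute warming 5 of the 51 peled-only genes were higher than in the peled control by that step (9.80%) and 2 were lower (3.92%), where 6.82% and 3.94% of all listed genes were. After chronic warming 5 were higher (9.80%) and 6 lower (11.8%), where 11.4% and 9.25% of all listed genes were. The median difference from the control over the 51 genes was -0.10 (log2) for acute and -0.01 for chronic warming, against -0.06 and 0.03 over all listed genes. No replicate check exists for a difference between single libraries.

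A few genes stood apart from the rest. TRINITY_DN6368_c0_g2 had 84.0 in acute, 12.2 in chronic and 4.32 in control peled, and was at 0 in all 3 omul libraries in aquaculture, with 1.65 in nature peled and 7.01 in nature omul. Its difference from the peled control was 3.999 (log2) after acute and 1.31 after chronic warming. TRINITY_DN881_c5_g1 had 27.6 in acute and 26.6 in chronic peled against 5.76 in the control, differences of 2.08 and 2.03. TRINITY_DN41622_c2_g1 was higher after chronic warming, with 10.9 in chronic against 3.23 in control peled, and stood at 2.58 in acute peled.

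On the lower side, TRINITY_DN13036_c0_g1 had 3.91 in acute and 3.29 in chronic peled against 28.3 in the control, differences of -2.58 and -2.77 (log2). TRINITY_DN75747_c0_g2 had 25.6 in acute peled against 198 in the control, a difference of -2.90, but 327 in chronic peled. TRINITY_DN39543_c0_g1 had 3.72 in chronic peled against 16.2 in the control, a difference of -1.87, and 11.7 in acute peled. The acute and chronic differences of a gene share its control library, so like values in both are not independent.

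Among the 18 omul-only genes, 0 were higher and 3 lower after acute warming (16.7%), where 4.44% and 5.72% of all listed genes were. After chronic warming 0 were higher and 2 lower (11.1%), where 6% and 5.86% were. TRINITY_DN64800_c0_g1 had 3.47 in acute, 10.9 in chronic and 12.4 in control omul, with an acute difference of -1.58 (log2). TRINITY_DN38501_c0_g1 had 7.90 in acute and 10.4 in chronic omul against 20.01 in the control, with an acute difference of -1.24. TRINITY_DN9940_c7_g1 had 6.86 in acute and 7.36 in chronic omul against 16.2 in the control. TRINITY_DN44864_c0_g2 had 7.26 in chronic omul against 16.2 in the control, and 13.4 in acute omul. The median difference over the 18 genes was -0.43 for acute and -0.15 for chronic warming, against -0.05 and -0.06 over all listed genes in omul.

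A test of warming was possible as a mean over both species, with species and state as terms over the 6 aquaculture-reared libraries. This fit runs on the libraries that chose the members, which favours even values in the species that holds them and values near 0 in the other, so the counts of members below describe them and test nothing about them. In limma's test 0 of the 69 members passed an adjusted p (Benjamini-Hochberg) below 0.05 for acute or for chronic warming. Over the 2180 genes tested, acute warming had 15 calls higher (0.688%) and 1 lower (0.0459%), and chronic warming 3 higher (0.138%) and 0 lower (0%). At an unadjusted p below 0.05 there were 4 of the 51 peled-only genes for acute warming (7.84%) and 5 for chronic warming (9.80%), against 8.62% and 15.4% of all genes tested, and 0 of the 18 omul-only genes for either. For a gene at 0 in all 3 libraries of a species, that species adds a difference of 0 to this mean. Any response of the other species then also enters the residual spread of the fit, which makes a call less likely. The counts depended on single libraries, since leaving out chronic peled or chronic omul brought 4 members past the acute threshold, and leaving them out brought 2 (without chronic peled) or 3 (without chronic omul) past the chronic one. Without the peled control or the omul control 1 member passed for acute warming.

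**Figure D3:**
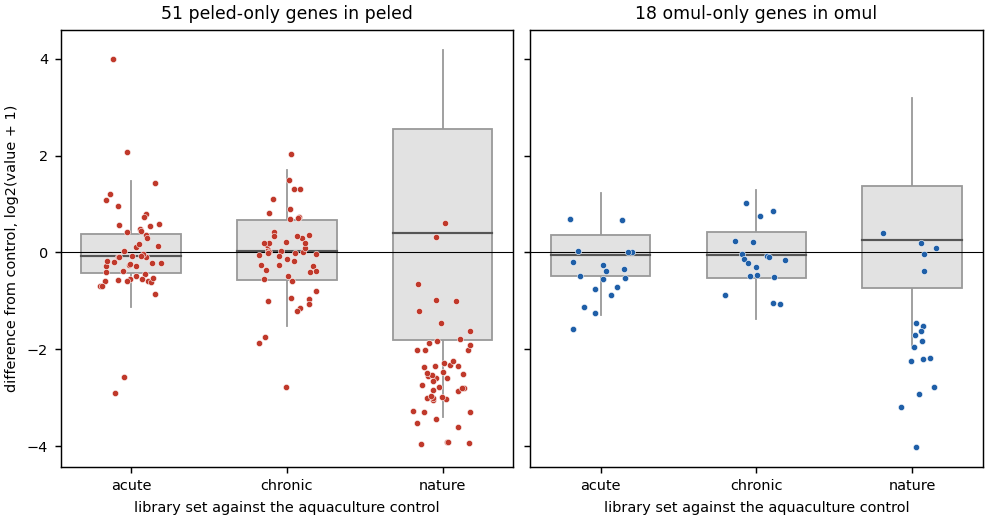
Difference of the acute, chronic and nature library from the aquaculture control of the same species, on the log2(value + 1) scale, for the 51 peled-only genes in peled (left) and the 18 omul-only genes in omul (right), 1 point a gene. Grey boxes span the middle 50% of all 2184 listed genes with their median and the lines the 5th to 95th percentiles. The points for acute and chronic warming have medians of -0.10 and -0.01 in peled and -0.43 and -0.15 in omul, and those for nature lie mostly below 0, with medians of -2.56 in peled and -1.76 in omul.

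The identifiers allow 1 further reading, which genes share an assembly component. Of the 69 members 8 did so with another listed gene (11.6%), against 9.39% of all listed genes, a share near the background. They fell into 7 components. TRINITY_DN53092_c0 held a pair of omul-only genes, g2 (described above) and g1, which had 0, 0 and 0 in acute, chronic and control peled against 8.41, 17.1 and 14.4 in omul. In the other 6 the partner was not a member.

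In 3 of these 6 components the partner was on the same side as the member in aquaculture, though in TRINITY_DN6368_c0 by a gap of only 0.50 (log2). The component of highest value was TRINITY_DN75747_c0, whose peled-only g2 stood beside TRINITY_DN75747_c0_g1, with 1249, 1678 and 1323 in acute, chronic and control peled, against 1.02, 1.05 and 343 in omul, and with 985 in nature peled and 927 in nature omul. Both genes were thus higher in the omul control than in the heated omul libraries. In TRINITY_DN6368_c0 the partner TRINITY_DN6368_c0_g1 had 135, 18.1 and 11.5 in acute, chronic and control peled, against 7.80, 1.45 and 3.53 in omul, so that acute peled was the highest library for both genes. The partner TRINITY_DN22491_c0_g1 had 26.8, 12.8 and 40.2 in acute, chronic and control peled against 0.87, 0.33 and 0.27 in omul, beside 10.3, 6.42 and 16.3 in peled for the peled-only TRINITY_DN22491_c0_g2.

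In the remaining 3 components, named after their values were seen, an omul-only gene stood beside a partner that did not share its order, and in 2 of them every aquaculture-reared peled value of the partner lay above every omul one. TRINITY_DN57096_c0_g3 had 2.22, 0 and 0 in acute, chronic and control peled against 44.5, 41.7 and 44.4 in omul. Its partner TRINITY_DN57096_c0_g1 had 39.0, 23.3 and 50.8 in peled against 2.61, 1.68 and 1.23 in omul. In nature both were listed in both species, g3 at 39.6 in peled and 47.1 in omul, and g1 at 13.8 in peled and 30.2 in omul. TRINITY_DN4859_c0_g3 had 1.02, 0 and 0 in peled against 7.50, 9.77 and 4.33 in omul, and its partner TRINITY_DN4859_c0_g1 had 12.2, 17.2 and 10.6 in peled against 1.72, 3.18 and 1.59 in omul. TRINITY_DN44864_c0_g2 was at 0 in all 3 aquaculture-reared peled libraries, while TRINITY_DN44864_c0_g1 had 38.3, 11.1 and 33.0 in peled against 6.81, 4.08 and 13.7 in omul, and the ranges of the species overlapped. No test bears on what lies behind these opposite values.

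**Figure D4:**
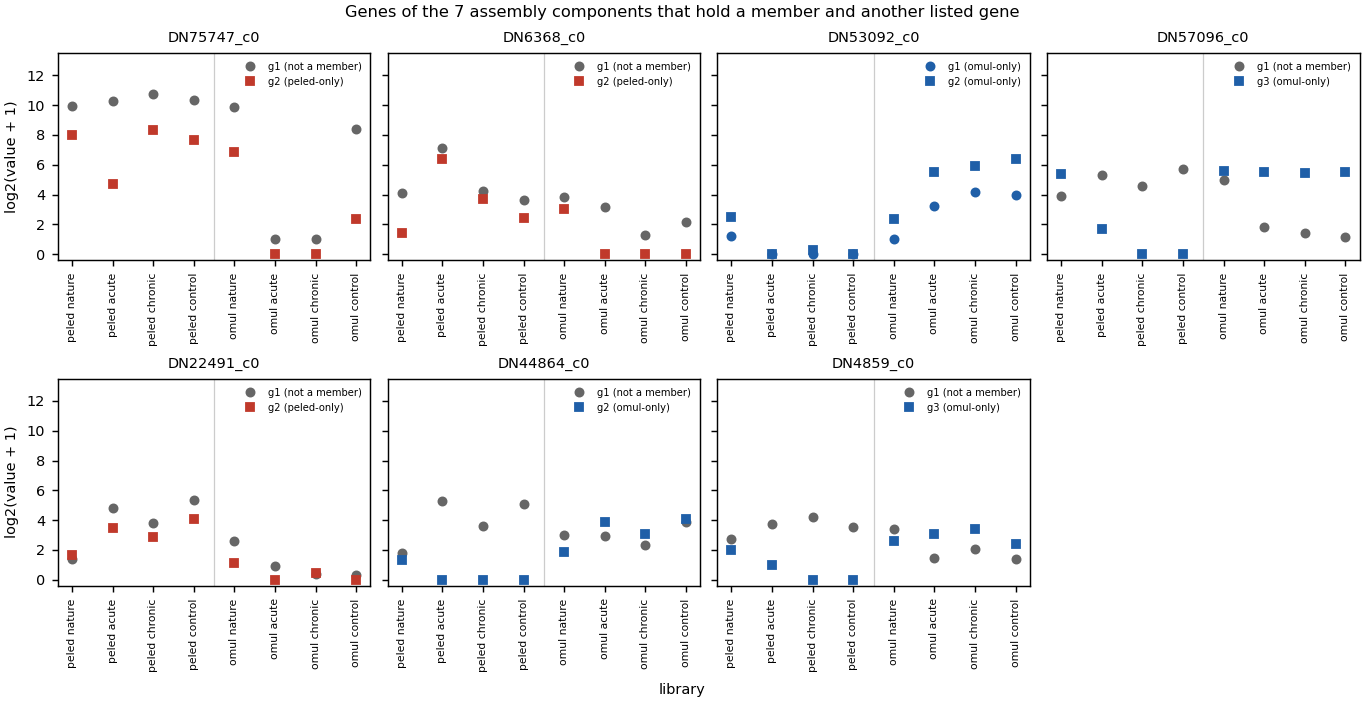
Values, as log2(value + 1), of the genes in the 7 assembly components that hold a member and another listed gene, by library, with the 4 peled libraries left of the 4 omul libraries in each panel. Red marks peled-only, blue omul-only and grey genes outside the rule. In DN57096_c0 and DN4859_c0 grey and blue points change places between the aquaculture-reared libraries of the species. In DN75747_c0, DN6368_c0 and DN22491_c0 grey and red points are both higher in aquaculture-reared peled than in aquaculture-reared omul.

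A wider grouping, the read cluster, was read after the values were seen. It was shared with another listed gene by 12 of the 69 members (17.4%), as by 17.4% of all listed genes. TRINITY_DN45569_c1_g1, the highest peled-only gene, had TRINITY_DN45569_c0_g1 in its cluster, with 262, 104 and 398 in acute, chronic and control peled against 0.30, 2.12 and 3.76 in omul, and with 110.4 in nature peled and 130.4 in nature omul. It tracked the member in each peled library but was not at 0 in omul. TRINITY_DN14916_c0_g1, in the cluster of the peled-only TRINITY_DN14916_c2_g1, went the other way. It had 39.4, 188 and 43.1 in acute, chronic and control peled against 219, 481 and 212 in omul. TRINITY_DN18899_c2_g1 and TRINITY_DN881_c4_g1, each beside a peled-only gene, were higher in aquaculture-reared peled. Their omul values there were 3.79 to 9.77 and 3.79 to 9.27.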

How the data were processed

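Each deposited file gave a normalized expression signal for 2184 Trinity genes in a pooled library. The values are not counts, and how the authors scaled them, assembled the transcripts or quantified them is not stated by the labels or headers. The submitters' processing notes list Trimmomatic 0.36 and edgeR 4.0.3 without saying what each did. Groups came from the sample titles.

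Members were found by the rule stated in the report. The rule, the lists and the tests were chosen with earlier results of these data known. Single libraries were compared on log2(value + 1), asking for a difference of 1 or more and for 10 or more in the higher of the pair. This scale understates the change of low genes. Warming was tested with limma 3.58.1 (R 4.3.3, intensity trend, Benjamini-Hochberg) on genes with a mean of at least 1 over 6 libraries, which left 2180, and the script was tested on simulated data. This fit has 2 residual degrees of freedom, which hold the disagreement of the species in their differences between states. Its p-values set a difference against that spread between pooled libraries, not against a spread between replicate pools. For each comparison at most 2 members each way were named, by largest difference or highest value, except where the text says otherwise. Depth is unknown, so no counting interval is given.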

Additional observations from a re-analysis of the deposited data

Results flagged for a closer look

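In 47 of the 51 peled-only genes the library from nature lay below all 3 aquaculture-reared libraries in peled and above all 3 in omul. Nature and aquaculture thus stood in opposite order in the species, as they did in 21.2% of all listed genes. In 14 of the 18 omul-only genes nature lay above aquaculture in peled and below it in omul, as in 15.9% of all listed genes. The difference between the species was not tested in either set, and the choice of members itself, low in the aquaculture-reared libraries of a species and high in those of the other, favours such a pattern.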

How the results depend on the processing

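The number of peled-only genes stayed within 41 to 56 and that of omul-only genes within 14 to 25 under other pseudocounts, a gap of 2, a median of at most 0.1, scaling to a common median and sums over components. With all 3 libraries required at 0 they were 26 and 6. Leaving out a library gave 31 (without acute omul, and 32 without chronic omul) to 51 peled-only genes. It gave 7 (without control peled, and 11 without chronic peled) to 22 omul-only genes. When the library left out is of the species at 0, a median of 0 needs both remaining libraries at 0. The rule is then stricter, so the lower counts do not show the weight of a single library alone. Among the 26 genes at 0 in all 3 omul libraries, nature omul was above nature peled in 22, and among the 6 omul-only ones in 4. Of all listed genes 56.6% were. After scaling to a common median it was above in 40 of the 51 and 11 of the 18, where 52.7% of all listed genes were.

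For peled-only genes higher in nature peled than nature omul, 2 in the report, the count was 1 with a pseudocount of 5, 0 at a difference of 2 and 0 among genes at 0 in all 3 libraries. For those lower, 6 in the report, it was 2 with a pseudocount of 5, 1 at a difference of 2, 13 at a value of at least 5, 18 with no minimum and 2 after scaling. For omul-only genes lower, 1 in the report, it was 0 at a difference of 2 and 4 at a value of at least 5 or with no minimum.

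Over all genes limma called 16 for acute warming, with 0 (without acute peled) to 100 (without chronic peled) when a library was left out. Other counts were 7 without acute omul, 29 without control peled, 30 without control omul and 96 without chronic omul. Chronic warming had 3 calls, and 0 (without either acute library or control omul) to 139 (without chronic omul), with 7 without control peled and 67 without chronic peled. It had 0 with a pseudocount of 0.1, without a trend or over 8 libraries, and 1 with a pseudocount of 5. In the fit on sums over components members could not be counted, since a sum is not a single gene. In the other fits 0 members were called unless a library was left out, as given above. Fits with a library left out keep 1 residual degree of freedom. A state whose library is missing in a species rests on the library of the other species. Without a chronic library, acute and control of both species remain, so the acute difference still draws on both. The cause of these shifts was not tested. Of 92 alternatives for the other counts of members, 26 moved them by over 1.5 times or to or from 0. Of 88 alternatives for the counts treated earlier in this section, 35 did. No paired analysis was possible because each group holds a single library, so no replicate numbers pair the samples, and species is a term of the limma fit. Depth is unknown, so a 0 cannot be given an upper limit.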
